A study of Mus musculus with 6 samples.

Results

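The genes followed here are 36 genes of mitosis and the spindle, chosen by name, out of 20660 genes that could be named on the array. They comprise the cyclins and kinases of mitotic entry, the spindle checkpoint, the anaphase machinery, kinetochore proteins, spindle motors and the proteins of cytokinesis. All 36 had at least 1 probe, and together they had 51 of the 55681 non-control probes. Of these 51 probes, 49 gave a signal well above background on at least 3 of the 6 arrays and 48 did so on all 6. No measured value entered the choice by rule, although the list was drawn up with earlier results of these data known.

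Mitosis begins when cyclin-bound Cdk1 is switched on by Cdc25 phosphatases. The spindle checkpoint holds chromosome separation until every kinetochore is attached, and the anaphase-promoting complex, working with Cdc20 and Ube2c, then marks securin and the B cyclins for destruction. The central spindle, the chromosomal passenger complex and a contractile ring complete division. Most of these genes are transcribed in G2 and mitosis, so in a mixture of cells their RNA is commonly read as a sign of cycling. Fetal liver haematopoietic progenitors are known to cycle, unlike most stem cells of adult bone marrow.

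The samples were sorted progenitors of the fetal liver of C57BL6/J mice at E18.5 of embryonic development, from Satb1-null animals and wild type littermates. SATB1 is a chromatin organiser with known functions in lymphoid cells. HSC-enriched cells (haematopoietic stem cells) were Lin-, c-kitHi, Sca-1+ and Flt3-. LMPP-enriched cells (lymphoid-primed multipotent progenitors) carried the same first 3 marks but were Flt3+. CLP-enriched cells (common lymphoid progenitors) were Lin-, c-kitLo, Sca-1Lo and IL7Rα+. Each of the 6 combinations of genotype and population had 1 single-colour Agilent array, hybridised with Cy3-labelled cDNA amplified from 6.1 ng of total RNA. The labels do not say how many animals stood behind each array. With 1 array per group, no difference between 2 single arrays has a replicate check.

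Signals are given as log2 intensity relative to the 75th percentile of the same array, so that 0 is that percentile and a difference of 1 is 2-fold. Signals of different probes cannot be compared as amounts of transcript. Between 12521 and 13154 genes were well above background on each array, and no spot was saturated. All 6 arrays lay on 1 slide with the wild type in its first row and the Satb1-null arrays in its second, so a genotype difference and a difference between slide rows cannot be told apart. The signal of Satb1 in the wild type was -0.03, 1.996 and 0.71 from HSC to CLP, and -0.59, 1.96 and 0.65 on the arrays labelled Satb1-null. The labels do not place its probe relative to the deleted stretch, so these values do not check the genotypes.

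Of the sort markers, Kit, Flt3 and Il7r followed their gates on the population axis. Kit was at 4.41, 4.56 and 2.79 from HSC over LMPP to CLP in the wild type and at 4.63, 4.38 and 3.74 in the Satb1-null series. Its difference between CLP and HSC did not pass in the limma fit described below (adjusted p = 0.10). Flt3 was at 3.21 and 3.32 on the 2 LMPP arrays against 1.18 and 1.35 on the HSC arrays, and Il7r was at 1.61 and 1.55 on the CLP arrays against -2.64 and -1.71 on the HSC arrays. Ly6a, which encodes Sca-1, followed its gate less closely, at 0.29, 1.12 and 0.21 from HSC over LMPP to CLP in the wild type and at 0.35, 0.14 and -0.50 in the Satb1-null series (adjusted p = 0.43 between CLP and HSC). Markers of other blood lineages also differed between populations. The summed signal of 8 erythroid genes, in multiples of the 75th percentile, ran from HSC over LMPP to CLP at 23.9, 22.2 and 711 in the wild type and at 46.4, 97.1 and 761 in the Satb1-null series. For 9 granulocyte and macrophage genes it was 284, 255 and 1076 in the wild type and 367, 325 and 924 in the Satb1-null series. For 7 megakaryocyte and mast cell genes it was 9.23, 9.67 and 225, and 14.2, 29.3 and 153. All 3 sums were thus highest on the CLP arrays of both genotypes, although the gate was Lin-. In the megakaryocyte and mast cell list Prg2, Pf4 and Epx had the highest CLP signals, and Prg2 and Epx are genes of eosinophil granules. Prg2 was at 7.27 and 6.72 and Epx at 4.64 and 4.19 on the wild type and Satb1-null CLP arrays. The mast cell gene Cma1 fell from 0.05 and 1.08 on the HSC arrays to -5.42 and -5.20 on the CLP arrays. The 5 tested genes of the list, without Cma1, were all higher in CLP than in HSC. The 7 stem cell genes ran the other way, at 142, 136 and 22.5 in the wild type and 182, 141 and 25.7 in the Satb1-null series. The sum of 7 lymphoid genes was highest on the CLP arrays too. It was 0.826, 1.73 and 7.16 in the wild type and 2.97, 2.52 and 9.19 in the Satb1-null series. Pax5 and Igll1 passed between CLP and HSC, and Vpreb1 had the highest CLP signals of the list (2.175 and 1.76). Rag2 was at -1.56, 0.01 and -1.87 in the wild type, and Dntt was highest in LMPP in both genotypes. Of the 6 lymphoid genes tested, all had fitted differences above 0 between CLP and HSC. Between CLP and LMPP, 4 were above 0 and 2 below. The 5 hepatocyte genes summed to between 0.268 and 0.558, and its markers Ttr and Apoa1 stayed near background on all 6 arrays. The macrophage marker C1qa and the stem cell marker Slamf1 did too. C1qa was an exception in its list, where all 8 genes tested were higher in CLP than in HSC and 6 passed in the limma fit described below. Among these were Marco, Cd5l, Vcam1 and Adgre1, with fitted differences of 5.08, 3.26, 4.26 and 4.76.

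**Figure D1:**
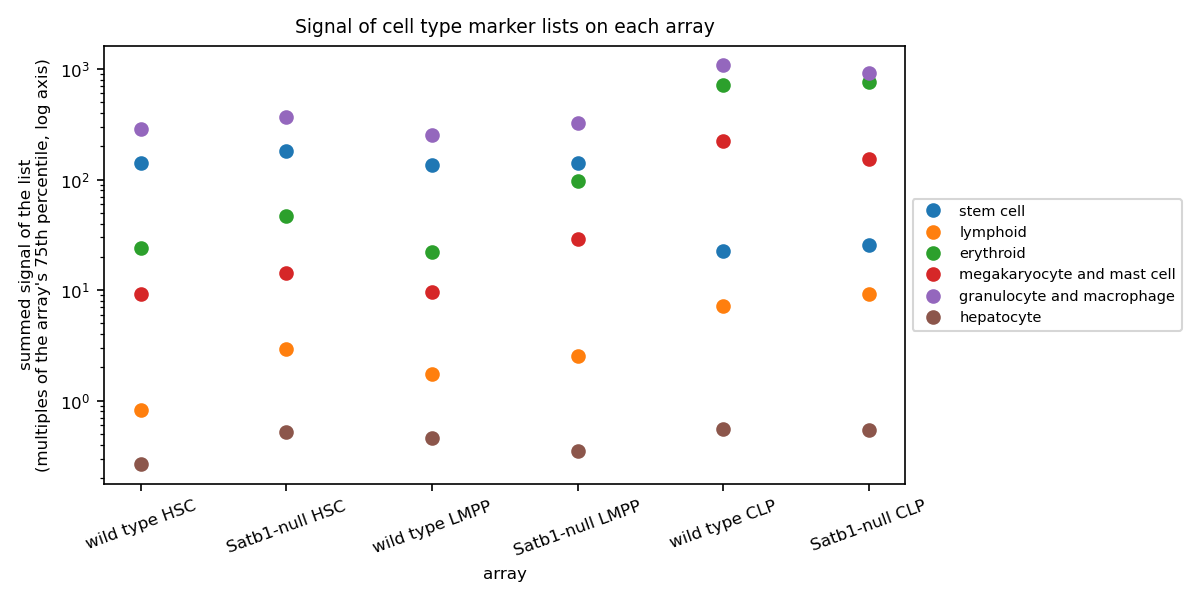
Summed signal of 6 cell type marker lists on each of the 6 arrays, in multiples of the array's 75th percentile on a log axis, 1 point per list and array. Erythroid, granulocyte and macrophage, and megakaryocyte and mast cell sums are highest on the 2 CLP arrays, where the stem cell sum is lowest.

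The promoters of these genes share sequence elements. Mitotic genes are known to be silenced in resting cells through the cell cycle genes homology region, a short element near the start site, and to be driven through CCAAT boxes upstream of it. RefSeq promoter windows of build GRCm38.p6, from 250 bases before to 50 bases after each annotated start, were at hand for 30 of the 36 genes. The letters TTTGAA on either strand were in the windows of 21 of these 30 genes (70%), against 20.2% of 27025 genes. The rarer form TTCGAA was in 4 of 30 (13.3%, against 1.80%). CCAAT on either strand was in 24 of 30 (80%, against 41.1%), and 2 or more copies were in 50% against 13.1%. Either homology form together with CCAAT was in 70% of the 30 genes and in 8.61% of all genes. Matches of different motifs were allowed to overlap, and a match describes these letters only, with no evidence of binding. The windows of Birc5, Mad2l1, Nusap1 and Pttg1 held none of these letters.

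The 6 stretches below show members with and without these letters whose arrays are described in detail further on: 4 genes that passed the test between CLP and HSC (Prc1, Ube2c, Ccnb1 and Anln), the central kinase gene Cdk1, and Pttg1, whose signal hardly differed between populations. Each is the 100 bases before the annotated start, 5′ to 3′ on the gene's strand, with CCAAT (or its complement ATTGG) and TTTGAA (or its complement TTCAAA) in capitals.
Prc1, chr7:80294376-80294475, plus strand: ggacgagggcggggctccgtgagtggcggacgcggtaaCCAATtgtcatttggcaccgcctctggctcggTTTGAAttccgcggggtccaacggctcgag
Ube2c, chr2:164769829-164769928, plus strand: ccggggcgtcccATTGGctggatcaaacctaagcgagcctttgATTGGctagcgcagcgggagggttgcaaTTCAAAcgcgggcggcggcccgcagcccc
Ccnb1, chr13:100786487-100786586, minus strand: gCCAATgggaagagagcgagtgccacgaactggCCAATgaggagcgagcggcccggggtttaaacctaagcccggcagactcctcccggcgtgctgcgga
Anln, chr9:22389207-22389306, minus strand: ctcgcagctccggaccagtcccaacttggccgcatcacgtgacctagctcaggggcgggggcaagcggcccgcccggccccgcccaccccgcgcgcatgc
Cdk1, chr10:69352913-69353012, minus strand: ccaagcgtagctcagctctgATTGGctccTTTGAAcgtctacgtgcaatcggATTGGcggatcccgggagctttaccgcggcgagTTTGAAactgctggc
Pttg1, chr11:43425982-43426081, minus strand: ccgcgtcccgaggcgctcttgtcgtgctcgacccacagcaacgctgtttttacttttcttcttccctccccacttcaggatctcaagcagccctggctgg
In Prc1 the CCAAT box begins 62 bases and the homology element 30 bases before this start. Ube2c has CCAAT boxes at 88 and 57 bases and its homology element at 29 bases before the start. Ccnb1 has CCAAT boxes at 99 and 67 bases but neither TTTGAA nor TTCGAA anywhere in its window. Other forms of the homology element were not searched for. Anln, also a called gene, has no CCAAT in its window, and its matches of TTTGAA lie after the start, at positions 21 and 28, so that the stretch shown holds no capitals. The match of Plk1 to TTTGAA and that of Cdc25b to TTCGAA lie after the start as well. Cdk1 has CCAAT boxes at 80 and 48 bases and homology elements at 71 and 15 bases before the start.

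Mitosis and spindle genes had higher signals in CLP than in HSC, with LMPP in between. Over the 35 members well above background on at least 3 arrays, the median signal was 1.36 in wild type HSC, 2.13 in LMPP and 2.68 in CLP, and 1.63, 2.15 and 2.59 on the Satb1-null arrays. The median of all genes tested was between 0.29 and 0.53 on every array. Both CLP arrays stood above both HSC arrays for 31 of the 35 members (88.6%), against 30.9% of the 13005 genes tested. HSC was below LMPP and LMPP below CLP in both genotypes for 25 of 35 members (71.4%), against 9.01% of all genes. In bulk RNA a larger share of dividing cells and more of these transcripts per cell cannot be told apart.

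**Figure D2:**
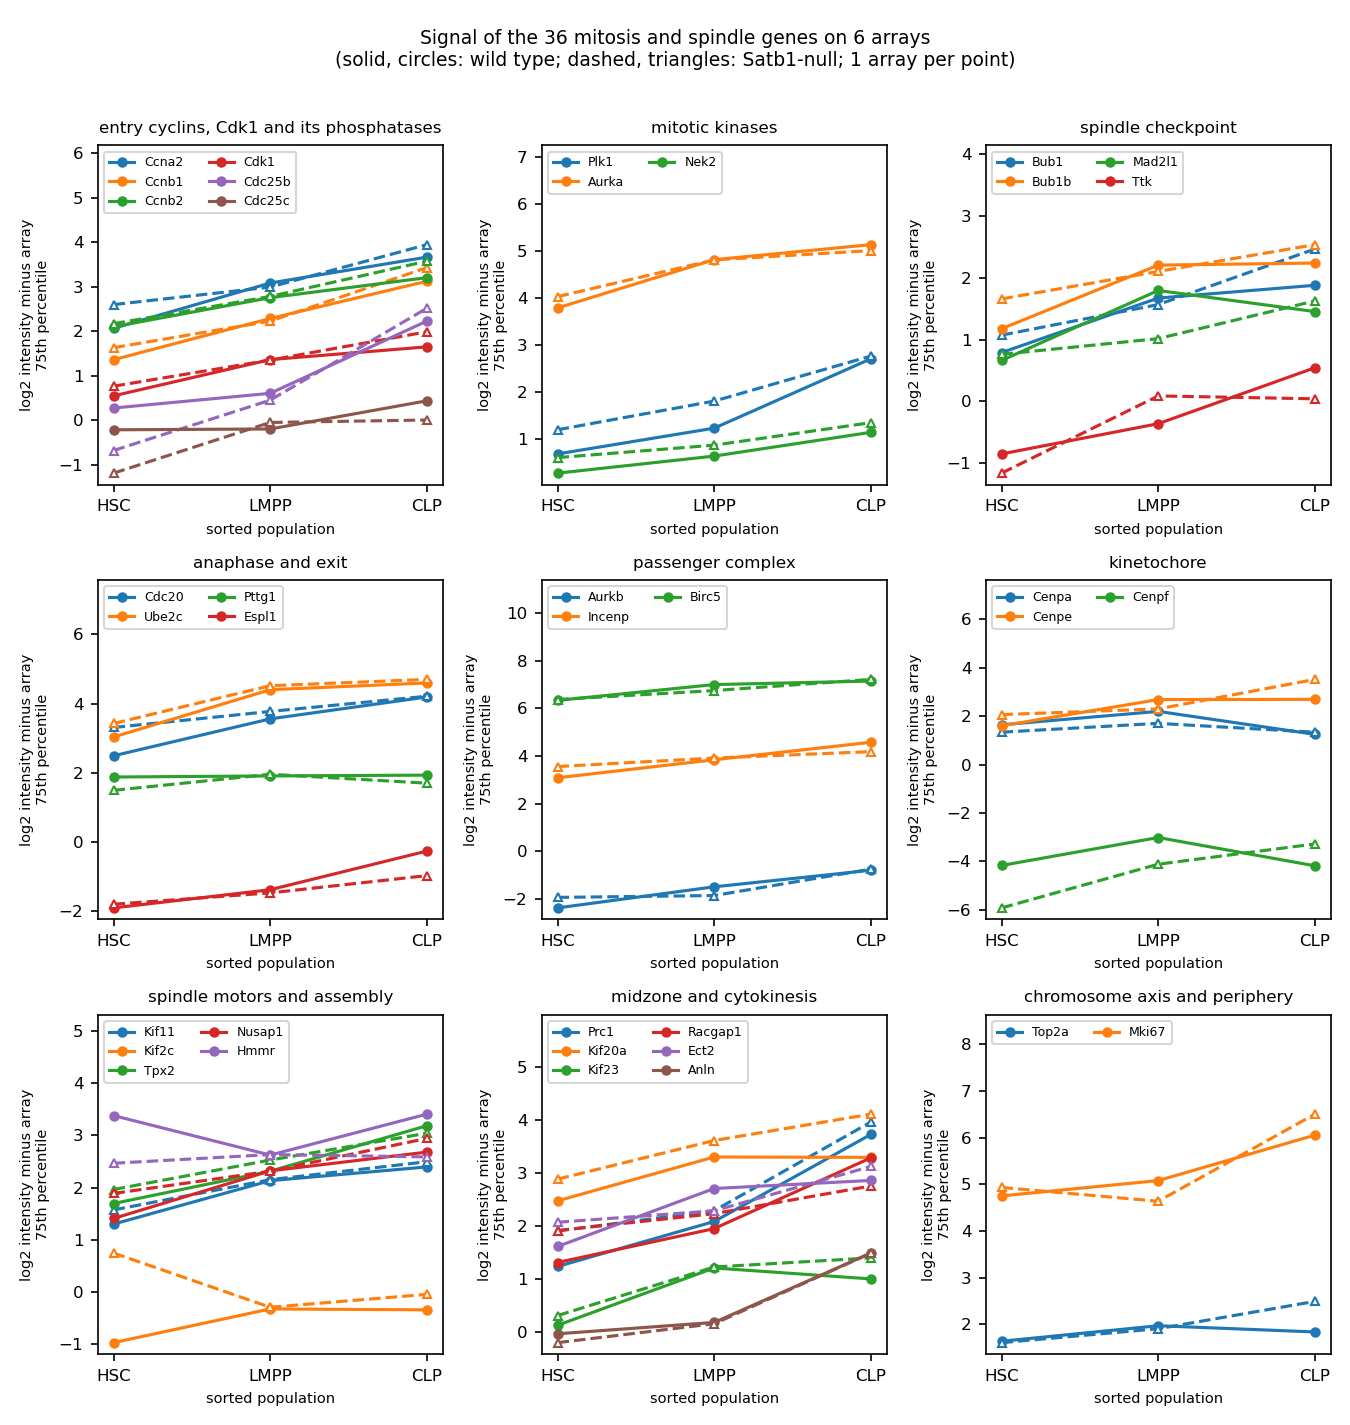
Signal (log2 intensity minus the array's 75th percentile) of the 36 genes in HSC, LMPP and CLP, in 9 panels by role, with circles and solid lines for the wild type and triangles and dashed lines for Satb1-null, 1 array per point. Both CLP points lie above both HSC points for 31 of the 35 tested genes, the exceptions being Pttg1, Cenpa, Kif2c and Hmmr, and heights of different genes are not comparable.

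The populations were tested in 1 limma fit over the 6 arrays with population and genotype as additive terms, which leaves 2 residual degrees of freedom, and p-values were adjusted over all 13005 genes. Between CLP and HSC, 7 of 35 members passed at an adjusted p under 0.05, all higher in CLP (20%, against 5.17% of all genes higher and 3.71% lower). Of all calls 58.2% were higher in CLP, a split that moved with the scaling to 78.5% with median centring, 44.8% with centring on detected probes and 47.6% in the deposited table. At an unadjusted p under 0.05, 29 of 35 were higher in CLP, against 15.9% of all genes, and none was lower, against 12.2%. The difference was above 0 for 33 of 35, against 51.3%. The median difference of the members was 1.16, and that of all genes was 0.02. The erythroid, granulocyte and macrophage, and megakaryocyte and mast cell lists had median differences of 2.86, 3.65 and 3.11 in the same comparison, the lymphoid list one of 2.42 and the stem cell list one of -3.71. Their part in the mitosis result was not tested. Between LMPP and HSC the members' median difference was 0.79 in the wild type, where the erythroid sum was 22.2 against 23.9. It was 0.43 in Satb1-null, where the erythroid sum was 97.1 against 46.4 and the megakaryocyte and mast cell sum 29.3 against 14.2. This erythroid sum followed its brightest genes, Hba-a1 (5.01 in HSC and 6.23 in LMPP) and Slc4a1 (2.68 and 3.97). On the same arrays Klf1 (-1.46 and -2.65), Epor (0.60 and -0.94) and Car1 (0.05 and -2.00) were lower in LMPP. Over both genotypes the fitted difference between LMPP and HSC was above 0 for 2 of 7 erythroid genes and below 0 for 5. Their median was -0.56.

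The count of called members moved with the settings while the direction of the median did not. It was 24 with centring on the array median, 24 with normexp background correction, 23 with an intensity trend in the variance, 14 among genes well above background on all 6 arrays and 0 with no detection filter. It was 5 with centring on detected probes, with quantile normalization and in the deposited table, where Ccna2 and Ube2c lost their calls. It was also 0 without any of the HSC or LMPP arrays, fits in which no gene of the 13005 was called, and 3 without wild type CLP and 5 without Satb1-null CLP. The median difference of the members minus that of all genes stayed between 1.004 and 1.27 over all of these settings.

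**Figure D3:**
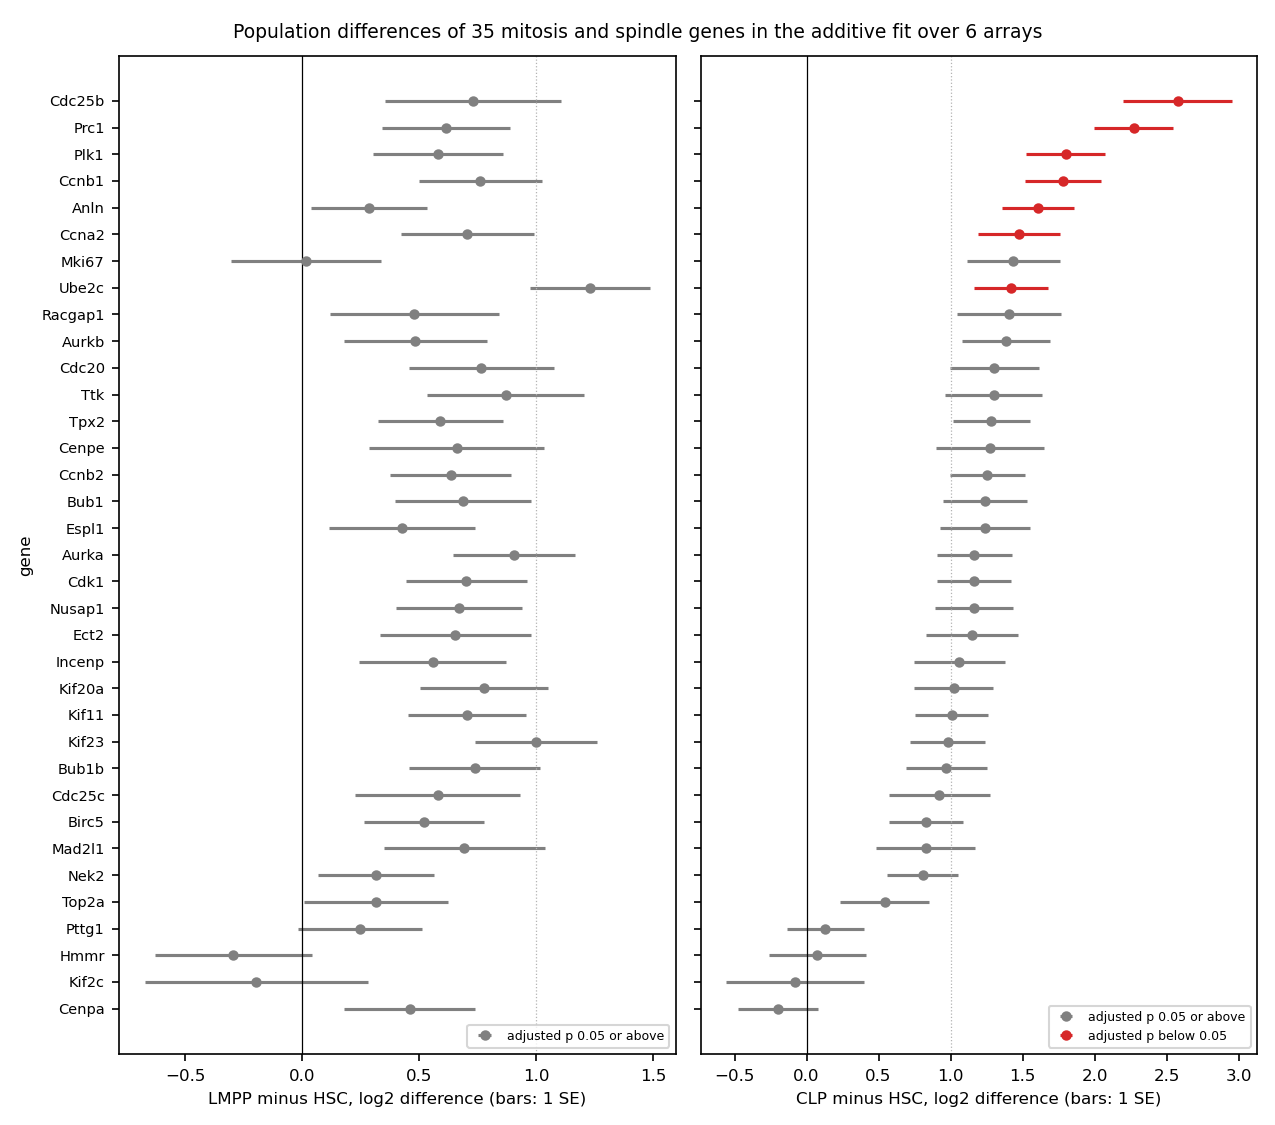
Log2 differences of the 35 tested members, LMPP minus HSC on the left and CLP minus HSC on the right, from the additive fit over 6 arrays, with bars of 1 standard error. Red points mark the 7 genes at an adjusted p under 0.05, all on the right, and the dotted line marks 2-fold.

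Among the genes of mitotic entry, Ccna2, Ccnb1 and Cdc25b rose from HSC to CLP. Cdc25b, the phosphatase that starts Cdk1 activation, had signals of 0.28 in HSC, 0.61 in LMPP and 2.23 in CLP of the wild type and of -0.68, 0.46 and 2.52 in the Satb1-null series. Both CLP arrays thus stood well apart from the other 4, and most of the distance lay between LMPP and CLP. Its difference was 2.58 ± 0.38 (SE), or 5.96-fold, at an adjusted p of 0.028, the largest difference among the members. Ccnb1, the cyclin B1 that partners Cdk1, was at 1.36, 2.29 and 3.13 in the wild type and 1.63, 2.23 and 3.43 in the Satb1-null series, with no overlap between any 2 populations. The difference between CLP and HSC was 1.78 ± 0.26 (SE), or 3.44-fold (adjusted p = 0.028). The other probes of Ccnb1 gave differences of 1.73 and 1.23 in the wild type and 1.62 and 1.06 in the Satb1-null series. Ccna2, the cyclin A2 of S phase and G2, was at 2.07, 3.09 and 3.67 and at 2.60, 2.997 and 3.95, again in the same order in both genotypes. Its difference of 1.47 ± 0.28 (SE) passed at an adjusted p of 0.046. That call was lost with centring on detected probes, with quantile normalization and in the deposited table, at adjusted p-values of 0.058, 0.061 and 0.056.

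The other genes of this role had the same order without passing. Ccnb2, encoding cyclin B2, was at 2.10, 2.76 and 3.21 in the wild type and 2.17, 2.79 and 3.58 in the Satb1-null series, a fitted difference of 1.26 ± 0.26 (SE) at an adjusted p of 0.053. Cdk1 was at 0.55, 1.37 and 1.65 and at 0.77, 1.36 and 1.99 (adjusted p = 0.062). Cdc25c, a second Cdc25 phosphatase, was at -0.21, -0.19 and 0.44 in the wild type and -1.19, -0.05 and 0.01 in the Satb1-null series. The 2 wild type steps of Cdc25c were thus unlike the Satb1-null steps, and its adjusted p between CLP and HSC was 0.17. All 6 genes of mitotic entry had both CLP arrays above both LMPP arrays and both LMPP arrays above both HSC arrays. Of all genes, 27.1% met the first condition and 31.5% the second, and the share meeting both was not counted. Cdc25c met them only by 0.02 between wild type LMPP and HSC and by 0.06 between Satb1-null CLP and LMPP. The scanner's own error of each of these 2 differences was 0.21.

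Among the mitotic kinases, Plk1, which acts from entry to cytokinesis, rose. Its signals from HSC to CLP were 0.68, 1.23 and 2.71 in the wild type and 1.20, 1.81 and 2.77 in the Satb1-null series. The Satb1-null HSC and LMPP arrays were each higher than their wild type partners by over 0.5, and the CLP arrays nearly coincided. The difference between CLP and HSC was 1.80 ± 0.28 (SE), or 3.48-fold, at an adjusted p of 0.031. Aurka, the kinase of centrosome maturation, was at 3.79, 4.82 and 5.14 and at 4.03, 4.82 and 5.01, so that its larger step lay between HSC and LMPP. It missed the threshold between CLP and HSC at an adjusted p of 0.062. Nek2, a kinase of centrosome separation, ran from 0.27 to 1.14 in the wild type and from 0.60 to 1.35 in the Satb1-null series (adjusted p = 0.12).

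The 4 genes of the spindle checkpoint had no call. Each had both CLP arrays above both HSC arrays, with fitted differences from 0.83 for Mad2l1 to 1.30 for Ttk. Bub1, a kinase of the checkpoint, was at 0.79, 1.67 and 1.88 in the wild type and 1.07, 1.57 and 2.47 in the Satb1-null series. Bub1b, which encodes the checkpoint protein BubR1, was at 1.17, 2.20 and 2.24 and at 1.66, 2.10 and 2.54. Ttk, the kinase Mps1 that starts checkpoint signalling, was at -0.85, -0.36 and 0.54 and at -1.16, 0.09 and 0.04, with Satb1-null CLP slightly under Satb1-null LMPP. Mad2l1, the Mad2 protein that inhibits Cdc20, was highest in wild type LMPP at 1.79, with 1.45 in wild type CLP and 1.02 and 1.63 in Satb1-null LMPP and CLP. Its 2 other probes did not place wild type LMPP above wild type CLP, at 1.25 against 1.67 and at 0.56 against 0.96. In Satb1-null the dimmer of these read 1.15 in LMPP and 1.03 in CLP.

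Among the genes of anaphase and mitotic exit, Ube2c rose. This ubiquitin-conjugating enzyme of the anaphase-promoting complex was at 3.03, 4.40 and 4.60 in the wild type and at 3.42, 4.52 and 4.70 in the Satb1-null series. On this brighter probe the HSC arrays stood apart, and LMPP and CLP lay within 0.2 of each other in each genotype. The other probe of Ube2c climbed further from LMPP to CLP, at 2.32, 3.51 and 4.11 in the wild type and 2.80, 3.34 and 3.99 in the Satb1-null series. On the brighter probe, which entered the fit, the difference between CLP and HSC was 1.42 ± 0.26 (SE), or 2.67-fold (adjusted p = 0.041). That call was lost with centring on detected probes, with quantile normalization and in the deposited table, at adjusted p-values of 0.055, 0.055 and 0.052. Cdc20, the activator of the same complex, was at 2.49, 3.56 and 4.19 in the wild type and 3.31, 3.77 and 4.21 in the Satb1-null series (adjusted p = 0.071). Espl1, the protease separase that cleaves cohesin, was at -1.91, -1.38 and -0.27 and at -1.80, -1.48 and -0.98 (adjusted p = 0.081). Pttg1, the securin that holds separase in check, differed from the rest of its role. Its signals were 1.88, 1.91 and 1.93 in the wild type and 1.49, 1.96 and 1.70 in the Satb1-null series, a fitted difference of 0.13 ± 0.27 (SE) between CLP and HSC that did not pass (adjusted p = 0.78).

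The chromosomal passenger complex, which corrects faulty attachments and later directs cytokinesis, had no call among its 3 members. Aurkb, its kinase, had the lowest mean probe signal of the members measured on all 6 arrays, at -2.39, -1.50 and -0.81 in the wild type and -1.95, -1.87 and -0.76 in the Satb1-null series. Incenp, the scaffold that activates Aurkb, was at 3.09, 3.84 and 4.58 and at 3.56, 3.92 and 4.18. Birc5, the survivin subunit, had the highest probe signals of the members, at 6.34, 7.01 and 7.15 and at 6.38, 6.75 and 7.22. All 3 genes had the order HSC, LMPP, CLP in both genotypes. Their fitted differences between CLP and HSC were 1.39 ± 0.31 (SE), 1.06 ± 0.31 (SE) and 0.83 ± 0.26 (SE), at adjusted p-values of 0.061, 0.11 and 0.12.

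The kinetochore genes differed among themselves, and none passed. Cenpe, the motor that carries chromosomes to the spindle equator, was at 1.60, 2.68 and 2.69 in the wild type and 2.06, 2.30 and 3.52 in the Satb1-null series (adjusted p = 0.11). Cenpa, the histone H3 variant that marks centromeres, was at 1.64, 2.20 and 1.25 and at 1.34, 1.70 and 1.34. Its highest signals were on the LMPP arrays, and it was the only member with both CLP arrays below both HSC arrays, by a fitted -0.20 ± 0.28 (SE) that did not pass (adjusted p = 0.68). In Satb1-null its HSC and CLP signals were nearly equal. Cenpf, a large kinetochore and nuclear matrix protein, was well above background on 2 of the 6 arrays, at -3.02 in wild type LMPP and -3.28 in Satb1-null CLP. It was left out of the fit for that reason.

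Among the spindle motors and assembly factors, 3 genes shared the general order. Kif11, the kinesin that pushes spindle poles apart, was at 1.30, 2.13 and 2.39 in the wild type and 1.57, 2.15 and 2.49 in the Satb1-null series. Tpx2, which activates Aurka at the spindle, was at 1.69, 2.31 and 3.18 and at 1.96, 2.53 and 3.04. Nusap1, a microtubule-bundling protein, was at 1.41, 2.32 and 2.68 and at 1.89, 2.31 and 2.94. None of the 3 passed between CLP and HSC, with fitted differences of 1.01, 1.28 and 1.16 and adjusted p-values of 0.080, 0.053 and 0.068.

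Kif2c and Hmmr departed from that order. Kif2c encodes a kinesin that takes microtubules apart at centromeres, and its brighter probe read -0.97, -0.32 and -0.34 in the wild type but 0.75, -0.29 and -0.04 in the Satb1-null series. The Satb1-null HSC array was thus the highest of the 6 on this probe. The dimmer probe of Kif2c read -2.08, -1.14 and -1.38 in the wild type and -1.32, -1.12 and -0.67 in the Satb1-null series, with HSC lowest in each genotype. Hmmr, the hyaluronan receptor RHAMM that also binds spindle poles, was at 3.38, 2.62 and 3.40 and at 2.46, 2.63 and 2.59. Wild type HSC and CLP stood above the other 4 arrays, and the fitted difference between CLP and HSC was 0.07 ± 0.34 (SE) (adjusted p = 0.91).

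The midzone and cytokinesis genes held 2 of the 7 calls and both calls between CLP and LMPP. Prc1, which bundles the antiparallel microtubules of the central spindle, was at 1.23, 2.08 and 3.72 in the wild type and at 1.90, 2.28 and 3.96 in the Satb1-null series. Its CLP arrays stood over 1.4 above every other array. The difference was 2.27 ± 0.27 (SE), or 4.83-fold, between CLP and HSC (adjusted p = 0.019) and 1.66 ± 0.27 (SE), or 3.15-fold, between CLP and LMPP (adjusted p = 0.032). Anln, the anillin scaffold of the contractile ring, was at -0.04, 0.18 and 1.48 and at -0.20, 0.15 and 1.48. Its HSC and LMPP arrays lay within 0.4 of each other, and the CLP arrays coincided. The difference was 1.61 ± 0.25 (SE), or 3.04-fold, between CLP and HSC (adjusted p = 0.031) and 1.32 ± 0.25 (SE), or 2.50-fold, between CLP and LMPP (adjusted p = 0.043).

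The other 4 genes of this role had both CLP arrays above both HSC arrays without passing. Racgap1, a subunit of centralspindlin, was at 1.31, 1.95 and 3.28 in the wild type and 1.91, 2.23 and 2.75 in the Satb1-null series (adjusted p = 0.083). Kif23, its kinesin partner, was at 0.12, 1.20 and 0.997 and at 0.31, 1.22 and 1.39, so that its step lay between HSC and LMPP. Kif20a, a kinesin that brings Plk1 to the midzone, was at 2.47, 3.30 and 3.29 and at 2.88, 3.61 and 4.10. Ect2, the exchange factor that activates RhoA at the cleavage site, was at 1.61, 2.70 and 2.85 and at 2.07, 2.28 and 3.12.

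The last 2 members act on the chromosomes themselves. Mki67, the Ki-67 protein that coats mitotic chromosomes and is a common marker of cycling cells, was at 4.75, 5.08 and 6.05 in the wild type and 4.93, 4.64 and 6.50 in the Satb1-null series. Its HSC and LMPP arrays were interleaved and both CLP arrays were about 1 or more above them, a difference of 1.44 ± 0.32 (SE) from HSC that missed the threshold (adjusted p = 0.063). Its other probe gave 1.39 in the wild type and 1.44 in the Satb1-null series. Top2a, the topoisomerase that untangles sister chromatids, had the smallest difference among the 31 members with both CLP arrays above both HSC arrays, at 0.54 ± 0.31 (SE) (adjusted p = 0.32). It read 1.64, 1.97 and 1.83 in the wild type and 1.61, 1.90 and 2.49 in the Satb1-null series.

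The steps to LMPP and from LMPP to CLP were compared side by side, as both rest on the same LMPP arrays. Between LMPP and HSC no member and no other gene passed at an adjusted p under 0.05 in this fit, and no member passed under any other setting tried. At an unadjusted p under 0.05, 9 members were higher in LMPP (25.7%, against 4.8% of all genes). Both LMPP arrays stood above both HSC arrays for 32 of 35 members, against 31.5% of all genes, with Kif2c, Hmmr and Mki67 as the exceptions. The difference was above 0 for 33 of 35, against 60.4% of all genes, and the members' median difference was 0.63, against 0.12. Between CLP and LMPP, 2 of 35 members passed (5.71%), against a background of 4.82% higher and 3.98% lower, so that the share of calls was near the background. Of all calls in that comparison 54.8% were higher in CLP, and 65.1% with median centring. Both CLP arrays stood above both LMPP arrays for 26 of 35 members, against 27.1% of all genes, and the difference was above 0 for 32 of 35, against 46%. The median difference was 0.49, against -0.06 over all genes. Prc1 kept its call between CLP and LMPP without the Satb1-null CLP array (adjusted p = 0.044). Leaving out any of the other 5 arrays took the calls of both Prc1 and Anln, and leaving out Satb1-null CLP took that of Anln. Without wild type CLP the member called was Cdc25b (adjusted p = 0.040).

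Individual genes split the distance between HSC and CLP differently. For Aurka and Kif23, with 1 probe each, the fitted step from HSC to LMPP was 0.91 and 0.998, and that from LMPP to CLP was 0.26 and -0.02. The brighter Ube2c probe gave steps of 1.23 and 0.19, and its other probe split the distance less unevenly in both genotypes. For Cdc25b, Prc1, Anln and Mki67 the same steps were 0.73, 0.62, 0.29 and 0.02, followed by 1.85, 1.66, 1.32 and 1.42. Whether the 2 steps differ was not tested for any gene.

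Within each genotype the comparisons rest on 1 array a side and have no test. CLP was at least 2-fold above HSC for 24 of 35 members in the wild type (68.6%, against 17.9% of all genes) and for 20 of 36 in Satb1-null (55.6%, against 15% of all genes). No member was 2-fold lower in CLP, against 15.8% and 14.1%. CLP was above HSC at any size for 34 of 35 (51.7% of all genes) and 34 of 36 (51.9%). LMPP was at least 2-fold above HSC for 10 of 36 members in the wild type (27.8%, against 7.45%) and for 4 of 35 in Satb1-null (11.4%, against 7.28%). The 4 were Cdc25b, Cdc25c, Ttk and Ube2c, and Kif2c alone was 2-fold lower in Satb1-null LMPP (6.71% of all genes were 2-fold lower in the wild type and 7.64% in Satb1-null). LMPP was above HSC at any size for 35 of 36 (61.3%) and 33 of 35 (52.4%). The members' medians for this step were 0.79 in the wild type and 0.43 in Satb1-null, and the Satb1-null HSC array, from which the second is measured, had the higher starting median. CLP was at least 2-fold above LMPP for 6 of 36 members in the wild type and for 7 of 36 in Satb1-null, each against 14.6% of all genes. Cdc25b, Prc1 and Anln were in both sets. In the wild type 1 member, Cenpf, was 2-fold lower as a bound, its CLP signal being near background (17.9% of all genes, and 14.5% in Satb1-null, were 2-fold lower). CLP was above LMPP at any size for 29 of 36 (46.7%) and 32 of 36 (50%).

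**Figure D4:**
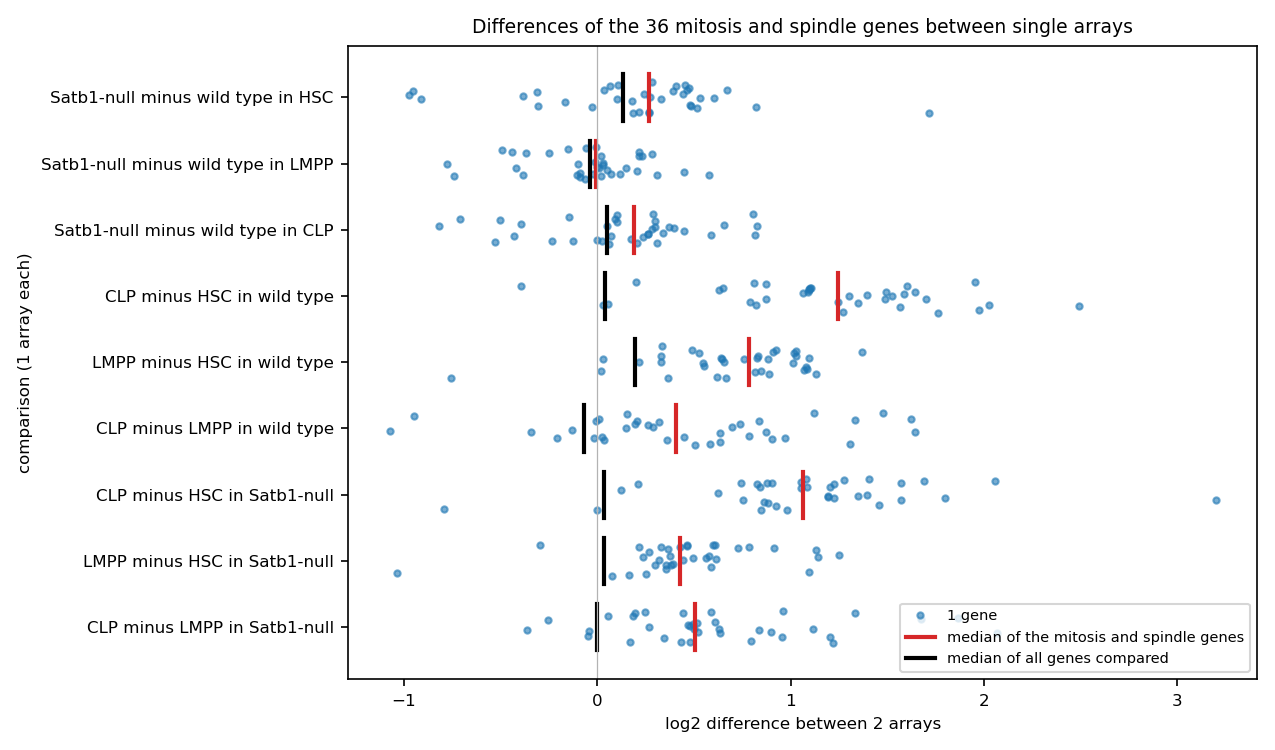
Log2 differences of the mitosis and spindle genes between 2 single arrays for 9 comparisons, 1 blue point per gene, with the median of these genes in red and that of all genes compared in black. In the population comparisons the red medians lie between 0.40 and 1.24 and the black ones between -0.07 and 0.20, and in the 3 genotype comparisons they lie within 0.3 of 0.

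The medians of these genes differed less between Satb1-null and wild type arrays than between populations. With 1 array per group, a missing call does not show that the genotypes were equal. No member passed for genotype in the fit, and none had an unadjusted p under 0.05, against 1 gene of all 13005 (0.00769%) that passed and 3.03% higher and 2.59% lower unadjusted. The fitted genotype differences had a median of 0.13, against 0.06 over all genes, and 25 of 35 were above 0 (71.4%, against 57.5%). Between the HSC arrays the members' median was 0.27 higher in Satb1-null (0.13 over all genes), with 27 of 35 higher (60.1% of all genes). Between the LMPP arrays it was -0.00 (-0.04 over all genes), with 17 of 36 higher (45.1%). Between the CLP arrays it was 0.19 (0.05 over all genes), with 26 of 36 higher (53.1%). The scanner's own error of such a difference had a median of 0.204, and 16, 6 and 10 members lay more than 2 such errors from 0 in HSC, LMPP and CLP. The same share over all genes was not counted, so these counts cannot be set against a background. The scanner error holds no variation between animals or sorts.

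Only Kif2c was 2-fold apart between genotypes, at 1.72 higher in Satb1-null HSC on its brighter probe, against 8.42% of all genes that were at least 2-fold higher there and 5.85% at least 2-fold lower. No member was 2-fold apart in LMPP (5.8% and 3.74% of all genes) or in CLP (11.9% and 8.33%). Cdc25c, Cdc25b and Hmmr were the members furthest below the wild type in HSC, at -0.97, -0.95 and -0.91. In CLP these 3 were at -0.43, 0.29 and -0.82. Satb1-null was above the wild type in all 3 populations for 10 members (28.6%, against 15.6% of all genes), namely Ccnb2, Plk1, Nek2, Cdc20, Ube2c, Kif11, Kif2c, Prc1, Kif20a and Kif23. It was below in all 3 for Anln alone, against 12.8% of all genes. Some of these signs rest on differences far below the scanner's own error of about 0.20. Anln was at -0.17, -0.02 and -0.0006 in HSC, LMPP and CLP. Kif11 and Kif23 were at 0.02 each in LMPP and Cdc20 was at 0.02 in CLP.

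Other genes of the cell cycle were read from 8 lists of 117 genes in the same fit. Condensin and cohesin genes, which fold and hold chromosomes, had 4 of 13 higher in CLP than in HSC and none lower, with a median difference of 1.06. The 4 were Smc2 (1.59 ± 0.27 SE), Smc4, Ncapg2 and Ncapd3. Further spindle, motor and cytokinesis genes had 3 of 16 higher (Ckap2l, at 1.90 ± 0.32 SE, Kif4 and Dlgap5) and a median of 1.04. Further mitotic kinases and cofactors had 4 of 15 higher (Cdc25a, Ccnf, Cdca3 and Haspin, at 2.20 ± 0.42 SE) and a median of 1.17. Further kinetochore and checkpoint genes had 1 of 16 higher (Spc25) and a median of 0.89. These medians stood beside 0.02 for all genes and 1.16 for the members, and the counts beside 5.17% of all genes called higher and 3.71% called lower, a background that the kinetochore and checkpoint list was near.

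Subunits of the anaphase-promoting complex had no call among 11 and a median of -0.07, and both CLP arrays were below both LMPP arrays for 7 of the 11 (31.7% of all genes). These core subunits are background to Cdc20 and Ube2c, the members that work with them. S phase genes had 4 of 18 higher in CLP than in HSC (Rrm2, Ccne1, Cdc6 and Tk1), against 5.17% of all genes, and a median of 0.74. Rrm2, a subunit of ribonucleotide reductase, was at 3.05, 3.19 and 5.61 in the wild type and 3.31, 3.46 and 5.39 in the Satb1-null series. Its step therefore lay between LMPP and CLP, at 2.17 ± 0.28 (SE) (adjusted p = 0.020).

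The activators and repressors of mitotic genes had no gene higher and 1 of 16 lower, with a median of 0.64. Of all genes, 5.17% were called higher and 3.71% lower. The gene that fell was E2f5, an E2F factor of repressor complexes, which was not well above background on either CLP array and was at least 3.09-fold lower there than in HSC. Cell cycle inhibitors had 2 of 9 higher and 2 of 9 lower, against the same background, with a median of 0.88. The difference between CLP and HSC was above 0 for 7 of the 9 and below 0 for 2, against 51.3% of all genes above 0. Cdkn1c, encoding p57, a cyclin-dependent kinase inhibitor known for stem cell quiescence, was at -1.55 and -0.85 in the HSC arrays and not well above background on either CLP array, at least 7.69-fold lower. Cdkn1a, encoding p21, was at 0.72, 0.57 and -1.67 in the wild type and 1.80, 1.82 and -0.34 in the Satb1-null series, a difference of -2.26 ± 0.25 (SE) between CLP and HSC (adjusted p = 0.017). Rb1, encoding the retinoblastoma protein, rose by 2.72 ± 0.35 (SE). Cdkn2c, encoding the inhibitor p18, rose by a fitted 5.07 ± 0.78 (SE). Of its 2 HSC arrays 1 was well above background, and the other entered the fit raised to the lowest such signal of its array, so that the difference may be understated. For genotype, no gene of the 8 lists passed.

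**Figure D5:**
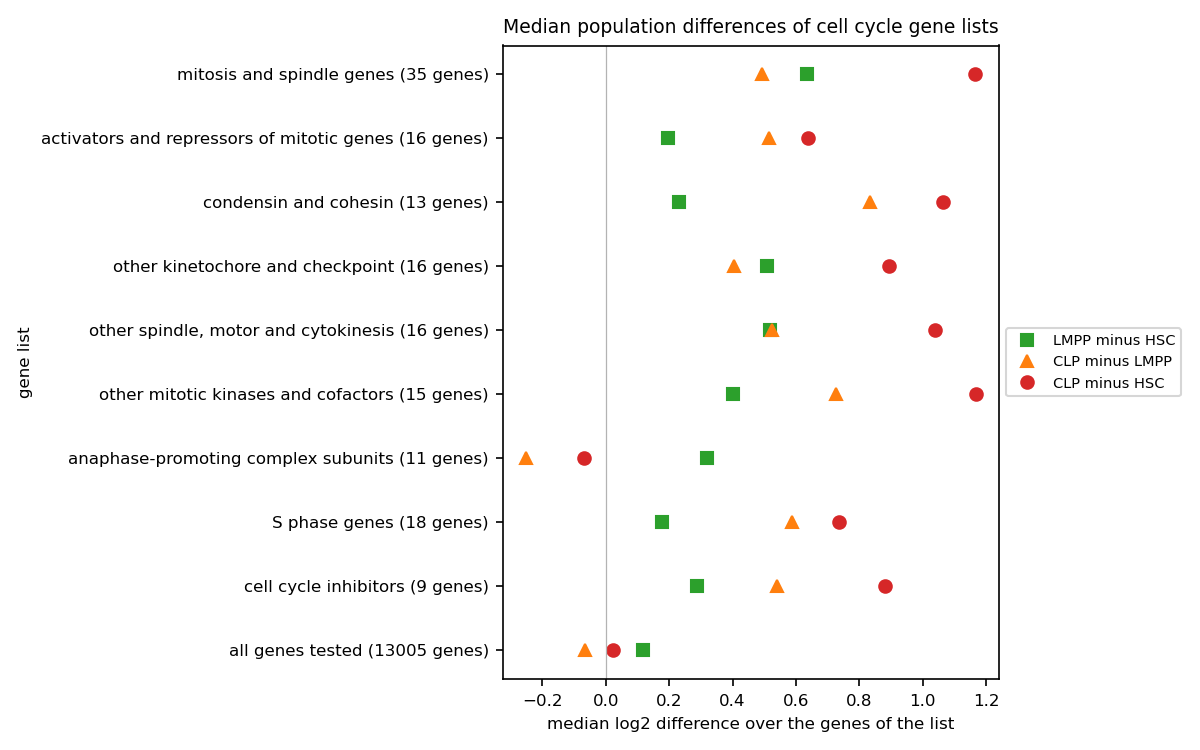
Median log2 differences of the mitosis and spindle genes, 8 other cell cycle lists and all genes tested, with squares for LMPP minus HSC, triangles for CLP minus LMPP and circles for CLP minus HSC, from the additive fit over 6 arrays. The circles lie between 0.64 and 1.17 for every list except the subunits of the anaphase-promoting complex, at -0.07, and all genes, at 0.02.

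The members with several probes allowed a check within genes. Of the 51 probes, 14 were further probes of a member well above background on at least 3 arrays, and 12 of these had both CLP arrays above both HSC arrays, the exceptions being a Cdk1 and a Kif2c probe. Over all 49 probes at that level of detection the count was 43. The share over all probes of the array was not counted, and over all genes tested, each read by its brightest probe, it was 30.9%. The probes of Cdk1 disagreed. Its brightest probe and the dimmest both had the order HSC, LMPP, CLP in the wild type, whereas the remaining probe read 0.51, -0.12 and -0.70 in the wild type and 0.13, 1.05 and 0.48 in the Satb1-null series. The 3 Birc5 probes and the 2 probes each of Incenp and Racgap1 all had both CLP arrays above both HSC arrays.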

How the data were processed

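Single-colour Agilent arrays of 6 sorted samples were analysed, 1 per genotype and population. The intensities used here are the scanner's processed signals from Agilent Feature Extraction (10.10.1.1 per the file headers, 10.10 per the submitters' processing notes), which are background-subtracted. Here log2 values were centred on each array's 75th percentile of non-control spots, flagged outliers were dropped and repeat spots averaged. Probes were named by RefSeq accession (27235 of 55681 matched), the brightest probe standing for a gene. Genes had to be well above background on 3 of 6 arrays, and dimmer values were raised to the lowest such signal of their array. The grid of the files is annotated to mm9, so no gene coordinates are given, and promoters are RefSeq's. limma 3.58.1 (R 4.3.3) fitted population and genotype additively, with Benjamini-Hochberg adjustment. The fit was also run on simulated normal values with the fitted variances, which does not check the calls made on these arrays. Members and lists were chosen with earlier results of these data known. Every member is reported. Other list genes are named if called, at most 4 per list and comparison. Alternatives covered centring, quantile normalization, normexp (on median signals, as the mean signal column was not in the files used here), the deposited normalized intensity table, probe choice, filters, an intensity trend and leaving out each array. The labels do not say whether samples were separate animals, and the number of arrays limits the precision.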

Additional observations from a re-analysis of the deposited data

Results flagged for a closer look

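For 2 probes the arrays of the 2 genotypes moved in opposite directions between the same populations, each by over 1.5-fold. The difference between genotypes was not tested, since each value compares 1 array with 1 other. On the brighter Kif2c probe LMPP minus HSC was 0.65 in the wild type and -1.04 in Satb1-null. On the same probe CLP minus HSC was 0.63 in the wild type and -0.79 in Satb1-null. Both pairs share the Satb1-null HSC array, the highest of the 6 on this probe, and the dimmer Kif2c probe gave CLP minus HSC of 0.70 and 0.65. On 1 of the 3 Cdk1 probes LMPP minus HSC was -0.63 in the wild type and 0.92 in Satb1-null, while the probe used for Cdk1 gave 0.82 and 0.59. No group holds enough arrays for a test of outlying samples.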

How the results depend on the processing

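No paired analysis was possible because each group has 1 array and the labels give no replicate numbers. The count of members called between CLP and HSC, 7 as reported, was 24 with median centring and 24 with normexp background correction. It was 14 among genes well above background on all 6 arrays. With neither filter nor floor (more genes tested) it was 0, and with an intensity trend it was 23. Each array, the only one of its group, was also left out in turn, with the counts given further up. Between CLP and LMPP the reported 2 became 4, 6, 5, 0 and 6 under the same settings, 1 with centring on detected probes, 1 with quantile normalization, and 0 to 1 when arrays were left out. No other comparison gained a call. No result changed sign while called. Centring moved the medians of single-array differences. With median centring they were 0.45 for genotype in HSC, 1.75, 1.06 and 0.64 for CLP minus HSC, LMPP minus HSC and CLP minus LMPP in the wild type, and 1.33 and 0.69 for CLP minus HSC and CLP minus LMPP in Satb1-null. With centring on detected probes, CLP minus HSC was 0.97 and 0.88 in wild type and Satb1-null, and CLP minus LMPP was 0.38 in Satb1-null. CLP minus HSC in the wild type was 1.004 with quantile normalization, 1.002 with normexp and 1.02 in the deposited table, where Satb1-null had 0.93, and CLP minus LMPP in the wild type was 0.48 with probes averaged. Median centring moved the median of all genes between CLP and HSC from 0.02 to 0.41, and centring on detected probes to -0.21. Relative to all genes, the members' medians of CLP minus HSC stayed between 0.98 and 1.24 in the wild type and 0.93 and 1.18 in Satb1-null. Counts past 2-fold moved too. For LMPP minus HSC the wild type's 10 became 19 with median centring, 5 with quantile normalization, 5 with normexp, 1 with centring on detected probes and 1 in the deposited table, and the 4 of Satb1-null became 1 with normexp. With median centring, the 20 of CLP minus HSC in Satb1-null became 31, and the 6 and 7 of CLP minus LMPP became 11 each. At 1.5-fold and 3-fold in place of 2-fold, CLP minus HSC gave 32 and 4 in Satb1-null, and 8 at 3-fold in the wild type. Between genotypes in HSC, 0 members were 2-fold lower as reported, and 3 were with centring on detected probes. Over all genes, calls between CLP and HSC were 1155 as reported, 1795 with median centring, 1976 with normexp, 2045 with an intensity trend and 219 with neither filter nor floor. With signals of 6 arrays and 2 residual degrees of freedom, members that did not pass cannot be called equal between populations or between genotypes.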
